A study of Mus musculus with 6 samples.

Results

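The 42 genes described here encode the carriers and enzymes of glycolysis, the subunits of hypoxia-inducible factor (HIF), the proteins that set its amount, and further genes known as its targets. They were taken as a list of symbols, and the array row with the highest mean over all 6 arrays stood for each gene among rows paired with exactly 1 symbol. Of the 42 genes, 40 had such a row, out of 19938 genes measured in the series, and Gpi1 and Eno1 were not analysed here. The RNA came from transplanted tumors grown in BALB/c mice from Renca, an established mouse renal carcinoma line of the same strain. In 3 mice the cells had been injected into the outer cortex of the kidney (intrakidney tumors 1, 2 and 3), and in another 3 mice under the skin (subcutaneous tumors 1, 2 and 3). All tumors were taken on day 12, and no group received a drug or carried an engineered allele, as far as the labels say. The model is a single transplanted line, and the sources used here give neither age nor sex of the mice.

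Glycolysis splits glucose into pyruvate, and cells short of oxygen turn the pyruvate into lactate and export it. When oxygen is present, the EGLN dioxygenases hydroxylate the HIF alpha subunits, and the VHL protein then marks them for destruction. When oxygen falls, HIF alpha pairs with ARNT and raises transcription of genes for glucose uptake, glycolysis, pH control, mitochondrial turnover and vessel growth. The pathway is closely tied to the kidney, because loss of VHL is a hallmark of human clear cell renal carcinoma, while proximal tubule cells of the healthy kidney make glucose rather than break it down.

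Values are log2 RMA intensities, so a difference of 1 is a doubling, and differences are intrakidney minus subcutaneous throughout. The median of all rows lay between 7.08 and 7.11 on every array. The carcinoma keratin gene Krt8 measured 13.16 to 13.35 and the renal lineage factor gene Pax8 measured 10.04 to 10.18 over the 6 tumors. Of the 8 carcinoma and epithelial markers on the list, 0 passed the adjusted threshold. At an unadjusted p of 0.05, where 3.71% of all genes were lower, 1 of the 8 was lower. That gene was Cdh1, which encodes the epithelial adhesion protein E-cadherin, with 9.09, 9.53 and 9.30 in intrakidney and 9.78, 9.91 and 9.79 in subcutaneous tumors (difference -0.52, limma, adjusted p = 0.209). These are whole tumors, in which fewer cells of a type and less RNA per cell cannot be told apart. Precision is limited by having 3 arrays per group, each from a separate mouse.

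The site of growth was not reflected in a call for any of the 40 genes. Of the 40, 0 passed an adjusted p of 0.05 with limma (Benjamini-Hochberg over all 19938 genes), where 0.231% of all genes passed, 0.13% of them higher and 0.1% lower. The smallest adjusted p among the members was 0.420, for Ndrg1. At an unadjusted p of 0.05, 10 members passed (25%), where 8.43% of all genes did. Of these, 8 members were lower in intrakidney tumors, or 20% of the 40, where 3.71% of all genes were, and 2 were higher, or 5%, where 4.72% of all genes were. The 8 were Bnip3, Egln1, Kdm3a, Pdk1, Bnip3l, Aldoc, Ndrg1 and Pfkm, and the 2 were Epas1 and Car9. These shares of all genes include many dim genes, while most members are bright. With the dimmest 40% of genes left out, 8 of the 38 remaining members were lower and 1 was higher at an unadjusted p of 0.05 (limma). Among the 11963 genes kept, 5.44% were lower and 7.72% higher. The median difference over the 40 genes was -0.081, against -0.0058 over all genes, and 30 of the 40 differences (75%) lay below 0, as did 52% of those of all genes. The 95% interval of the difference stayed within 0.5 on the log2 scale in either direction for 29 of the 40 genes. The counts at the unadjusted threshold moved with single arrays. Without subcutaneous tumor 2 they were 0 lower and 0 higher, where 2.09% and 2.8% of all genes passed, and without intrakidney tumor 3 they were 11 lower and 0 higher, where 2.89% and 3.72% passed. The lower count was 4 without intrakidney tumor 1, 3 without intrakidney tumor 2 and 3 without subcutaneous tumor 1, where 4.79%, 4.05% and 2.73% of all genes passed. Without subcutaneous tumor 3 the counts were 8 lower and 1 higher, where 4.33% and 4.29% of all genes passed. At the adjusted threshold 0 members passed without subcutaneous tumor 2 or intrakidney tumor 3, where 0.015% of all genes passed without subcutaneous tumor 2 (0.00502% lower) and 0.166% without intrakidney tumor 3 (0.0853% lower). With arrays weighted by their fit, 1 member was lower past the adjusted threshold (Pfkm, adjusted p = 0.0484), where 1.26% of all genes were.

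**Figure D1:**
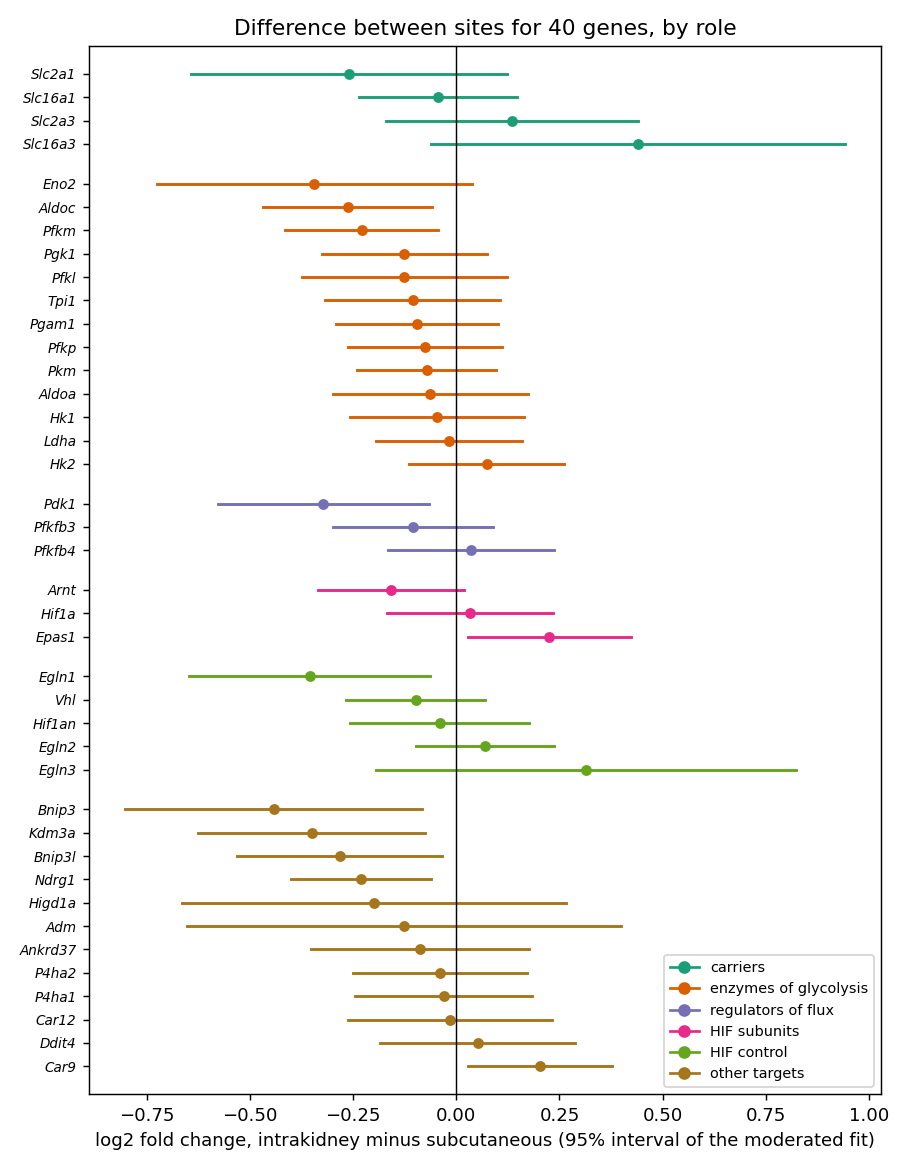
Difference between intrakidney and subcutaneous tumors for 40 genes, grouped by role. Points are log2 fold changes (intrakidney minus subcutaneous, n = 3 per group), and lines are the 95% intervals of limma's moderated fit. Points lie between -0.44 (Bnip3) and 0.44 (Slc16a3), left of 0 in 30 of 40 genes, and most intervals cross 0.

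HIF binds a short core sequence in the control regions of its targets, so the promoter windows of the listed genes were searched for that core. The motifs were ACGTG and GCGTG on both strands, and a CACGTG run counts as 2 matches because its strands overlap. RefSeq windows of 300 bases that span each gene's start (GRCm38.p6) were found for 38 of the 42 genes, taking the start farthest upstream. At least 1 match stood in 29 of the 38 windows, or 76.3%, against 43.8% of the windows of 27025 RefSeq genes. The shares with 3 or more matches were 34.2% and 9.15%. This background was not limited to the genes measured on the arrays. The 38 windows include those of Gpi1 and Eno1, whose array values were not analysed. The windows of the members were richer in G and C, with a median of 64.5% against 52.7%, and the motifs hold both letters, so the shares are not matched for base composition. A match is a description of the letters and does not show binding. The windows below are 3 from members with low values in intrakidney tumors 1 and 2 (Bnip3, Pdk1 and Egln1), 1 from a member with nearly equal group means and the most matches (Ldha, 7 matches), and 1 from a member that was high in intrakidney tumor 3 alone (Egln3). Matches are in capitals, and each window is written 5′ to 3′ on the gene's own strand.
Bnip3, chr7:138909457-138909756 (GRCm38.p6, minus strand): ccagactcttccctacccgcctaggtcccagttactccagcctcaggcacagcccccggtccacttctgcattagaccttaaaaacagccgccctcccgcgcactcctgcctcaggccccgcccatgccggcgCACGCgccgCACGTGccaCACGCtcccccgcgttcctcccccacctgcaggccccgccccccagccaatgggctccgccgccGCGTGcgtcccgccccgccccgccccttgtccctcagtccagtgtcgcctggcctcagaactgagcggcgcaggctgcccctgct
Pdk1, chr2:71872974-71873273 (GRCm38.p6, plus strand): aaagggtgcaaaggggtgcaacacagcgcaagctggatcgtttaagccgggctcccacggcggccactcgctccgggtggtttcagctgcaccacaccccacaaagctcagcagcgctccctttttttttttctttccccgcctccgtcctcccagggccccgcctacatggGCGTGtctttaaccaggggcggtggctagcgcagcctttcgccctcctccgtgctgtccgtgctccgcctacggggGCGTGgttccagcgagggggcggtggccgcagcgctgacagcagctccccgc
Egln1, chr8:124949205-124949504 (GRCm38.p6, minus strand): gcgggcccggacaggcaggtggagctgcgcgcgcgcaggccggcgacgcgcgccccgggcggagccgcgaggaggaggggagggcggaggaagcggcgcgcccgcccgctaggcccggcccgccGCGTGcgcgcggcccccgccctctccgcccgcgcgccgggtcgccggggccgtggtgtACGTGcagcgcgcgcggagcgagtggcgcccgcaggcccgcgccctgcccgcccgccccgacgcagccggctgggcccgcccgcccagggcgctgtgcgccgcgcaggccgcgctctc
Ldha, chr7:46845554-46845853 (GRCm38.p6, plus strand): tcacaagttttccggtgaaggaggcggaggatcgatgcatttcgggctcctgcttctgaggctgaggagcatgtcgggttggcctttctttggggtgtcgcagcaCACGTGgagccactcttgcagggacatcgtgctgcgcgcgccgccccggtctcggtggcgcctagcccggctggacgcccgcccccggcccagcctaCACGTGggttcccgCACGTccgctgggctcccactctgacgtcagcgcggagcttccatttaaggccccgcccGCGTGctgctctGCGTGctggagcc
Egln3, chr12:54203825-54204124 (GRCm38.p6, minus strand): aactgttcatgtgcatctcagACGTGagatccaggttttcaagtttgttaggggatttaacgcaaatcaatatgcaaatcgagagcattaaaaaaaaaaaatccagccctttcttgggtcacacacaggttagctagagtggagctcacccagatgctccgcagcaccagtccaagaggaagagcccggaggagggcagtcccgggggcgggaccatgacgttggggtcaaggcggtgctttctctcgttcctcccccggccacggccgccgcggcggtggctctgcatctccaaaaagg
The window of Bnip3 held 5 matches, those of Pdk1 and Egln1 2 each, and that of Egln3 1. The windows of Eno2 and Vhl held 0, which says only that these letters are not in this stretch.

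For each of the 4 glucose and lactate carriers, the larger SD within a group exceeded the difference between the sites. Slc2a1, which encodes the glucose carrier GLUT1, measured 11.89, 12.02 and 12.54 in intrakidney tumors 1, 2 and 3 and 12.32, 12.53 and 12.39 in the subcutaneous tumors. Intrakidney tumors 1 and 2 lay below every subcutaneous tumor and intrakidney tumor 3 just above the highest, and the difference was -0.26 ± 0.16 (SE, limma, adjusted p = 0.756). Slc16a3, which encodes the lactate exporter MCT4, measured 9.20, 9.38 and 10.08 in intrakidney and 8.98, 9.28 and 9.08 in subcutaneous tumors. Its difference of 0.44 ± 0.22 (limma, adjusted p = 0.663) was 0.18 without intrakidney tumor 3, which stood 0.79 above the mean of the other intrakidney tumors. The groups overlapped. The second glucose carrier gene Slc2a3 (GLUT3) differed by 0.14 and the lactate carrier gene Slc16a1 (MCT1) by -0.045, and for both genes the groups overlapped.

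Among 13 measured enzymes of the glycolytic chain, 12 had a difference below 0 (92.3%, against 52% of all genes), with a median of -0.094, and 2 passed the unadjusted threshold. Aldoc, the aldolase isoform best known from brain and a target of HIF, measured 11.35, 11.41 and 11.52 in intrakidney and 11.68, 11.81 and 11.57 in subcutaneous tumors. The groups did not overlap, and the difference was -0.26 ± 0.088 (SE, limma, adjusted p = 0.450). Pfkm, the muscle-type phosphofructokinase subunit, measured 10.95, 10.90 and 10.83 against 11.21, 11.15 and 11.01, a difference of -0.23 ± 0.079 (adjusted p = 0.465) with no overlap. Among the 13 enzymes it alone had intrakidney tumor 3 as the lowest intrakidney tumor. Eno2, the enolase isoform named for neurons, measured 9.88, 10.02 and 10.49 in intrakidney and 10.45, 10.65 and 10.33 in subcutaneous tumors. Intrakidney tumors 1 and 2 lay below all subcutaneous tumors while intrakidney tumor 3 lay among them, and the difference was -0.34 ± 0.16 (adjusted p = 0.652).

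The enzymes at the entry and the exit of the chain had small differences. Hk2, the hexokinase induced in many carcinomas, measured 10.70, 10.74 and 10.92 in intrakidney and 10.72, 10.72 and 10.69 in subcutaneous tumors, a difference of 0.074 ± 0.080 (SE). Ldha, the lactate dehydrogenase subunit that favors lactate, measured 13.61, 13.64 and 13.79 against 13.71, 13.73 and 13.66. Its difference of -0.018 had a 95% interval from -0.20 to 0.16. The remaining phosphofructokinase subunit genes Pfkl and Pfkp differed by -0.13 and -0.075, the phosphoglycerate kinase gene Pgk1 by -0.13, the triosephosphate isomerase gene Tpi1 by -0.11, and the mutase gene Pgam1 by -0.094. The pyruvate kinase gene Pkm differed by -0.072 and the main aldolase gene Aldoa by -0.063. The groups overlapped for each of these 7 genes. Hk1 was read from a row of doubtful identity, which is described further on.

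Of the 3 regulators of flux, 1 passed the unadjusted threshold. Pdk1 encodes the kinase that shuts pyruvate dehydrogenase and so keeps pyruvate out of mitochondria, and it measured 8.97, 8.87 and 9.203 in intrakidney and 9.35, 9.46 and 9.202 in subcutaneous tumors. Intrakidney tumor 3 and subcutaneous tumor 3 were level, and the other intrakidney tumors lay below all subcutaneous tumors, giving -0.32 ± 0.11 (SE, limma, adjusted p = 0.463). Pfkfb3 makes the sugar phosphate that activates phosphofructokinase. It measured 9.93, 9.90 and 9.88 in intrakidney and 10.14, 9.996 and 9.89 in subcutaneous tumors, a difference of -0.11 with overlapping groups. Its relative Pfkfb4 differed by 0.035 (95% interval -0.17 to 0.24).

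The differences of the 3 HIF subunit genes had both signs. Hif1a, the oxygen-labile subunit whose protein rather than RNA is controlled by oxygen, measured 12.43, 12.20 and 12.34 in intrakidney and 12.33, 12.34 and 12.19 in subcutaneous tumors. Its difference was 0.033, with a 95% interval from -0.17 to 0.23. Epas1, which encodes HIF-2 alpha, measured 7.97, 7.76 and 7.99 against 7.64, 7.68 and 7.73. All 3 intrakidney tumors lay above the subcutaneous tumors, with a difference of 0.23 ± 0.085 (SE, limma, adjusted p = 0.514). Arnt, the stable partner of both subunits, measured 10.04, 9.98 and 10.05 against 10.29, 10.11 and 10.14, a difference of -0.16 ± 0.076 (adjusted p = 0.657), again with no overlap. Groups that do not overlap were seen in 7 of the 40 members, or 17.5%, and in 14.9% of all genes, which is close to that background. Of the 7, 5 were lower (12.5%, against 6.53% of all genes) and 2 higher (5%, against 8.41%). Epas1 is also known as a gene of endothelium, and the mean over 12 endothelial markers was 8.32, 8.32 and 8.29 in intrakidney and 8.16, 8.02 and 8.14 in subcutaneous tumors. Of these markers 9 had a difference above 0 and 1, the capillary sialomucin gene Emcn, was higher past the threshold (0.72 ± 0.098, limma, adjusted p = 0.0460), a call lost when any single array was left out (adjusted p from 0.0606 to 0.247). With all arrays it was also lost under quantile normalization (adjusted p = 0.0773), with every row tested (0.185) and with the replicate block (0.139). Over all genes, 0.13% were higher past the adjusted threshold with all arrays. The part of endothelium in the Epas1 result was not tested.

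Of the 5 genes that control HIF, 3 had a difference below 0 and 1 passed the unadjusted threshold. Egln1, the main oxygen sensor and itself a target of HIF, measured 10.07, 10.07 and 10.39 in intrakidney and 10.54, 10.71 and 10.35 in subcutaneous tumors. Intrakidney tumors 1 and 2 lay below all subcutaneous tumors, intrakidney tumor 3 overlapped with them, and the difference was -0.35 ± 0.13 (SE, limma, adjusted p = 0.480). Egln3, the sensor most strongly induced by hypoxia in many cells, measured 6.63, 6.65 and 7.46 against 6.66, 6.70 and 6.42. Only intrakidney tumor 3 was high, and the difference of 0.32 ± 0.22 (adjusted p = 0.788) was 0.042 without it. Vhl, the recognition subunit of the ligase that destroys HIF alpha, measured 9.12, 9.06 and 9.20 against 9.21, 9.28 and 9.18, a difference of -0.098 (95% interval -0.27 to 0.071). Egln2, the sensor least tied to hypoxia, differed by 0.069 and Hif1an, which blocks the transactivation domain of HIF alpha, by -0.040, both with overlapping groups.

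Among the 12 further targets of HIF, 10 had a difference below 0 (83.3%, against 52% of all genes), and 4 lower and 1 higher passed the unadjusted threshold. In the rows used, the largest difference of any member was that of Bnip3, which triggers removal of mitochondria. That of Slc16a3 (0.44) was nearly as large in the other direction, and the other Bnip3 row gave -0.37. Bnip3 measured 11.87, 11.90 and 12.40 in intrakidney and 12.46, 12.66 and 12.37 in subcutaneous tumors, a difference of -0.44 ± 0.15 (SE, limma, adjusted p = 0.470), or 1.36-fold. Intrakidney tumors 1 and 2 lay well below the rest, and intrakidney tumor 3 was level with the lowest subcutaneous tumor. Its relative Bnip3l showed the same order, with 11.84, 11.89 and 12.18 against 12.25, 12.34 and 12.16 and a difference of -0.28 ± 0.11 (adjusted p = 0.517). Kdm3a, a histone demethylase gene, measured 9.28, 9.09 and 9.380 against 9.70, 9.71 and 9.383. Its groups did not overlap by a narrow margin, and the difference was -0.35 ± 0.12 (adjusted p = 0.453). Ndrg1, a stress-responsive growth regulator gene, measured 13.64, 13.69 and 13.78 against 13.95, 13.97 and 13.87. It had no overlap, the smallest SE of the 8 lower members and a difference of -0.23 ± 0.073 (adjusted p = 0.420).

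Of the other targets, Car9 and Ddit4 had a difference above 0. Car9, which encodes the membrane carbonic anhydrase used as a hypoxia marker, measured 6.51, 6.42 and 6.54 in intrakidney and 6.33, 6.33 and 6.20 in subcutaneous tumors. It was higher in all 3 intrakidney tumors by 0.20 ± 0.075 (SE, limma, adjusted p = 0.498). Car9 and Egln3 were the 2 members under the 40th percentile of mean value, where RMA compresses changes. Adm, the vasodilator peptide adrenomedullin, varied most within a group of all members, with 10.94, 11.08 and 11.85 in intrakidney (SD 0.493) and 11.26, 11.56 and 11.42 in subcutaneous tumors (SD 0.148). Its difference was -0.13, and -0.41 without intrakidney tumor 3. Higd1a, a mitochondrial protein gene, measured 9.20, 8.82 and 9.51 against 9.40, 9.66 and 9.07, a difference of -0.20 ± 0.20. The remaining 5 had smaller differences: the carbonic anhydrase gene Car12 differed by -0.015, the ankyrin-repeat gene Ankrd37 by -0.088, the collagen prolyl hydroxylase genes P4ha1 and P4ha2 by -0.031 and -0.039, and the mTORC1 inhibitor gene Ddit4 by 0.052.

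**Figure D2:**
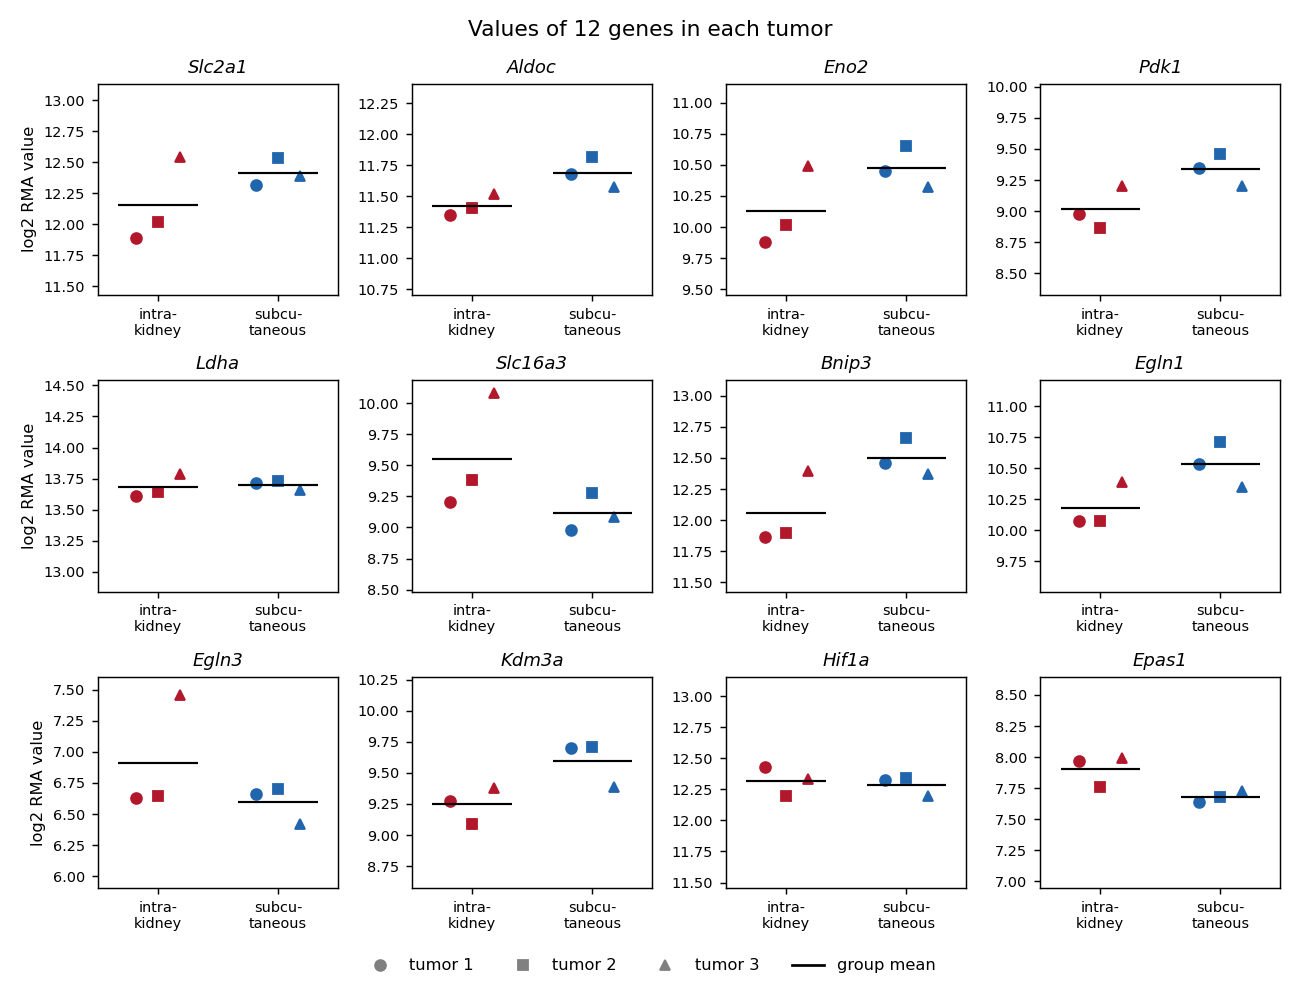
Log2 RMA values of 12 genes in each of the 6 tumors, with a line at each group mean (n = 3) and every panel spanning the same range of 1.7 on the log2 scale. For Slc2a1, Eno2, Pdk1, Bnip3 and Egln1, intrakidney tumors 1 and 2 lie below all subcutaneous tumors and tumor 3 does not. For Slc16a3 and Egln3, intrakidney tumor 3 lies above the other 5 tumors.

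Many members shared an order of the intrakidney tumors. Intrakidney tumor 3 was the highest of the 3 intrakidney tumors in 35 of 40 members (87.5%), against 24.2% of all genes. Intrakidney tumors 1 and 2 both lay below every subcutaneous tumor in 23 members (57.5%), against 9.59% of all genes, and both lay above every one in 3 members (7.5%), against 12.3%. The median gap of intrakidney tumor 3 over the mean of the other 2 was 0.19 over the members and -0.0075 over all genes. Within the subcutaneous group, tumor 2 was the highest in 27 members (67.5%), against 25.9% of all genes. This order was noticed in these values, rests on 1 tumor per pattern and has no replicate, so it is given with no test. Members share each array and many are read at high intensity, so they are not independent.

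**Figure D3:**
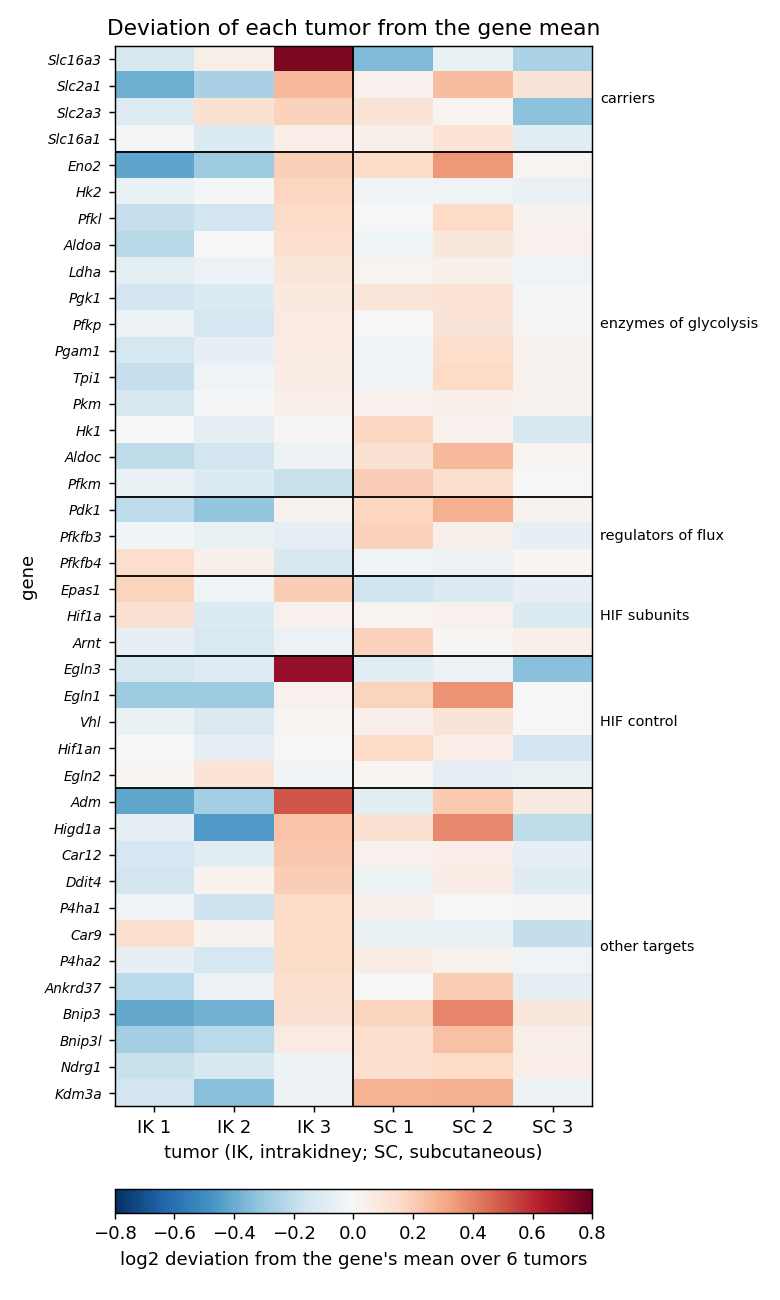
Deviation of each tumor from the gene's mean over 6 tumors (log2, color scale from -0.8 to 0.8) for 40 genes in rows and intrakidney (IK) and subcutaneous (SC) tumors in columns. The columns of intrakidney tumors 1 and 2 are mostly below the mean (median deviations of -0.13 and -0.11), and those of intrakidney tumor 3 and subcutaneous tumor 2 mostly above it (0.071 and 0.096).

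Leaving out intrakidney tumor 3 lowered most differences. That direction was fixed in advance for the 35 of 40 members in which this tumor was the highest intrakidney tumor. With the 2 remaining intrakidney tumors the median of the members was -0.13 and that of all genes -0.0035. The difference of Bnip3 became -0.61 ± 0.11 (SE, limma, adjusted p = 0.206), that of Eno2 -0.52 ± 0.12 (adjusted p = 0.348), that of Egln1 -0.46 ± 0.12 (adjusted p = 0.435) and that of Slc2a1 -0.45 ± 0.10 (adjusted p = 0.334). Of the 40 members 0 passed over all genes here too, where 0.166% of all genes did. The 11 members lower at the unadjusted threshold in this setting were Bnip3, Slc2a1, Eno2, Bnip3l, Pdk1, Egln1, Adm, Kdm3a, Ndrg1, Aldoc and Pfkl. Epas1 and Car9, which had passed that threshold with all arrays, stayed at 0.18 each and no longer did. When subcutaneous tumor 2 was left out instead, 0 members were lower at that threshold, where 2.09% of all genes were.

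**Figure D4:**
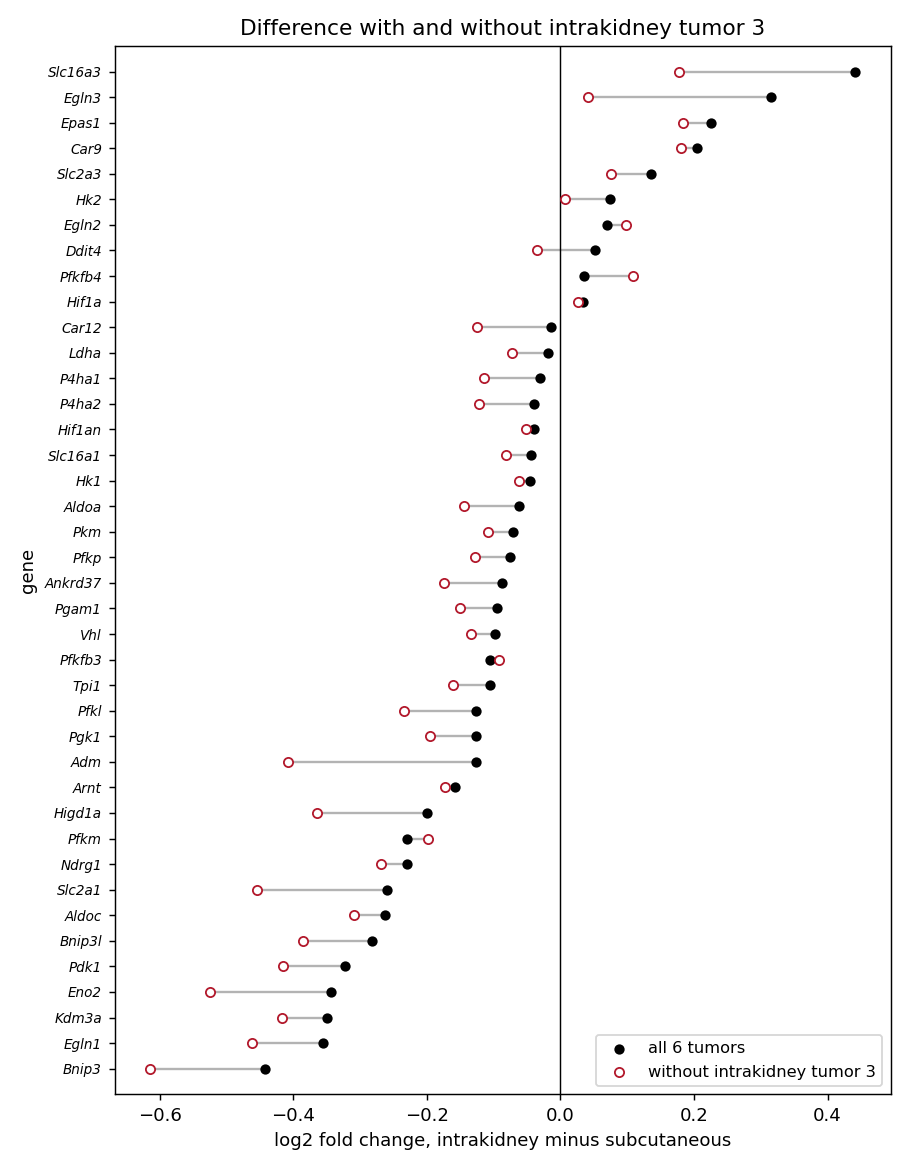
Log2 fold change (intrakidney minus subcutaneous) of 40 genes with all 6 tumors (filled) and without intrakidney tumor 3 (open), joined by a line per gene. Most open points lie left of the filled ones, with the largest moves for Adm (-0.13 to -0.41), Egln3 (0.32 to 0.042) and Slc16a3 (0.44 to 0.18). A move to the left was fixed in advance for the 35 genes with tumor 3 as the highest intrakidney tumor.

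Markers of other cells were read on the same arrays. Over all genes, 4.72% were higher and 3.71% lower at the unadjusted threshold, and 0.13% and 0.1% at the adjusted one. For 13 fibroblast and matrix genes the intrakidney tumors averaged 8.82, 8.68 and 9.23, and the subcutaneous tumors 9.49, 9.41 and 9.38. Like Bnip3 and Slc2a1 this mean was lowest in intrakidney tumors 1 and 2, and 3 of the 13 genes were lower in intrakidney tumors past the threshold. Of the 13 genes, 11 had a difference below 0 and 2 above it, Dcn (0.46) and Fap (0.055). Over 21 proximal tubule genes the mean was 6.75, 7.18 and 7.80 against 6.69 to 6.82, and that over 8 neutrophil genes was 6.21, 6.37 and 6.74 against 5.98 to 6.04. Both means were highest in intrakidney tumor 3, as were Slc16a3, Egln3 and Adm. The neutrophil genes Ly6g, Ngp and Camp lay below the mean of the other intrakidney tumors there (gaps of -0.28, -0.058 and -0.11). So did the tubule genes Aqp1, Napsa, Gatm and Slc17a1. In either list 0 genes passed the adjusted threshold. At the unadjusted one 4 neutrophil genes were higher and 0 lower, and 4 tubule genes were higher and 1 lower. The lower gene, the water channel gene Aqp1, had the lowest p of the tubule list, with 8.60, 7.87 and 7.94 against 9.16, 9.07 and 9.29. Its difference was -1.04 (limma, adjusted p = 0.114). The adjusted p was 0.0111 without intrakidney tumor 1, and 0.251 to 0.432 when any other single array was left out. The mean over 9 proliferation genes was 10.49, 10.39 and 10.31 against 10.34 to 10.40. All 9 measured adipocyte genes were above 0, 3 of them past the threshold, and their mean was 7.61, 7.44 and 7.64 against 6.51 to 6.65. All 9 T cell genes were below 0, 4 of them lower at the unadjusted threshold, with a median of -0.34. Of 9 macrophage genes 4 were higher and 0 lower at that threshold, and the mean of the 9 was 10.49, 10.29 and 10.34 against 10.09 to 10.15. The 4 were Mrc1, Cd163, Cd14 and Msr1, while Cd68, Csf1r and Adgre1 had differences below 0 (-0.063, -0.14 and -0.049). The part of these cells in the members' values was not tested.

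Neighboring genes of the pathway, from 7 lists, were measured on the same arrays, and 0 of their measured members passed over all genes with limma. Some did in other settings, such as Hkdc1 and Stc1 without dim genes. Among 12 other glycolytic isoforms, 3 were higher at the unadjusted threshold, which 4.72% of all genes passed, and 0 lower. Hkdc1, a hexokinase-like gene, measured 8.08, 7.91 and 7.69 in intrakidney and 7.34, 7.30 and 7.27 in subcutaneous tumors, a difference of 0.59 ± 0.10 (SE, adjusted p = 0.109) with no overlap. Ldhb, the lactate dehydrogenase subunit of aerobic tissues, measured 7.01, 7.30 and 8.01 against 6.79, 6.95 and 6.58 and was highest in intrakidney tumor 3, while Hk3, a hexokinase of myeloid cells, differed by 0.32. The macrophage and neutrophil means given above were also higher in the intrakidney tumors, although 3 macrophage genes and 1 neutrophil gene had differences below 0. The part of these cells in the Hk3 value was not tested. Of 16 genes of gluconeogenesis and glycogen, 2 were higher at the unadjusted threshold, where 4.72% of all genes were. They were Pck1, the gluconeogenic enzyme of proximal tubule and liver, with 6.99, 7.51 and 7.93 against 6.84, 6.91 and 6.75, and the glycogen phosphorylase gene Pygl, which differed by 0.45. Next in order of p came Ppp1r3c, which encodes a glycogen-targeting subunit of protein phosphatase, at 0.17 and the glycogen synthase gene Gys1 at -0.22.

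Of 32 other genes known to respond to hypoxia, 0 passed the adjusted threshold. At the unadjusted threshold 4 were higher and 5 lower, where 4.72% and 3.71% of all genes were, and the median difference was -0.089. Plod2, a collagen lysyl hydroxylase, measured 7.10, 6.56 and 7.43 in intrakidney and 6.01, 6.15 and 5.68 in subcutaneous tumors, a difference of 1.09 ± 0.22 (SE, limma, adjusted p = 0.166). Stc1, a secreted glycoprotein gene, measured 7.29, 7.57 and 7.59 against 7.98, 8.04 and 8.14, and Cxcr4, a chemokine receptor gene, measured 9.60, 9.37 and 9.82 against 10.51, 10.39 and 10.04. Their differences were -0.57 ± 0.10 (adjusted p = 0.110) and -0.72 ± 0.15 (adjusted p = 0.187), and the groups did not overlap for any of these 3 genes. The cyclin gene Ccng2 differed by -0.36. No gene of the lists for pyruvate entry into mitochondria (11 genes), other carriers (13), the pentose phosphate pathway (7) and HIF partners and turnover (17) passed even the unadjusted threshold. Their lowest p belonged to Pdp1 (-0.19), Slc2a9 (0.17), Taldo1 (0.14) and Cited2 (-0.20).

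Some members were read from rows that can share signal with near-identical copies. The row taken for Hk1 measured 13.26, 13.19 and 13.27 in intrakidney and 13.43, 13.30 and 13.13 in subcutaneous tumors. It is paired with Hk1 through 1 accession, which also stands in 16 rows that the annotation pairs with both Hk1 and the ribosomal protein gene Rpl17. The other Hk1 row, paired through 8 accessions, measured 9.84, 9.80 and 10.12 against 10.08, 10.08 and 9.99, a difference of -0.13 in place of -0.046. The value of Hk1 is uncertain for this reason. Bnip3, Bnip3l, Higd1a, Pgam1, Pgk1 and Pkm also had more than 1 row, and within each gene all rows had a difference of the same sign. Pgam1 and Pgk1 each had another row with the same values as the row used on every array. For those rows the shared sign was fixed in advance. The second row of Bnip3 gave -0.37 and that of Bnip3l -0.27. With every row tested, the second Bnip3 row had an unadjusted p of 0.0857 (limma), against 0.0354 for the row used. In the second row intrakidney tumor 3 (11.37) lay above subcutaneous tumor 1 (11.20).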

How the data were processed

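Mouse Gene 1.0 ST arrays were hybridised with total RNA from 6 tumors. The deposited log2 values are the authors' own, and the submitters' processing notes name RMA and affy without versions. The log2 scale was judged from the range of values, and joint normalization of all arrays is not stated. RMA includes background correction and quantile normalization, and it compresses changes of dim genes. Of 35512 rows, 21789 were paired with exactly 1 gene by the platform annotation, and the row with the highest mean stood for each of 19938 genes. limma 3.58.1 in R 4.3.3 (lmFit, eBayes, two-sided) compared 3 intrakidney with 3 subcutaneous tumors, with Benjamini-Hochberg adjustment over all genes and a threshold of 0.05, and was tested on simulated data. The 95% intervals come from the moderated fit. No batch is given by the labels. Sequences are from RefSeq (GRCm38.p6). The members, lists and settings were chosen with earlier results of these data known. Tumor values were printed for the 14 members with the lowest p, the 6 with the largest SD within a group and 12 set members, and of each pathway list at most 4 genes were named in order of p.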

Additional observations from a re-analysis of the deposited data

How the results depend on the processing

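With 3 arrays per group and log2 intensities, small differences of dim genes cannot be resolved. The members called numbered 0 in each direction in every setting except array weights, where 1 was lower (Pfkm, -0.29, adjusted p = 0.0484, with 1.26% of all genes lower). The replicate number as a block gave 0 genes higher and 0 lower over all genes (limma, 1825 at an unadjusted p of 0.05). Deviations of same-numbered tumors correlated at 0.37, -0.16 and 0.10, and those of differently numbered tumors between -0.44 and 0.43. With 3 tumors per group these values cannot decide whether the numbers pair the tumors. Testing every row gave 0 and 0 (2206 at an unadjusted p of 0.05). In place of 26 genes higher and 20 lower, counts were 63 and 38 without dim genes, 94 and 44 with a trend and robust prior, 373 and 251 with array weights, 17 and 13 without intrakidney tumors 2 and 3, and 2 and 3 at an adjusted p of 0.01. Without intrakidney tumors 2 and 3, 1 intrakidney tumor is left, the subcutaneous tumors alone supply the spread, and the lone tumor is assumed to vary like them. An offset of 16 gave 45 higher. Leaving out 1 array gave 1 to 19 higher and 1 to 17 lower. The members' median ranged from -0.13 to -0.044 when 1 array was left out.

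Members with a difference near 0 changed sign in some settings, and the cause was not tested. With array weights, which were largest for intrakidney tumor 3 and subcutaneous tumor 2, the difference was 0.0088 for Aldoa, 0.026 for Ldha, -0.036 for Pfkfb4, -0.0022 for Hif1a, 0.086 for Car12, 0.12 for Adm, 0.068 for P4ha1 and 0.044 for P4ha2. With intrakidney tumor 1 as the only intrakidney tumor it was -0.034 for Slc2a3, -0.014 for Hk2 and -0.12 for Ddit4. Leaving out 1 array gave ranges of -0.15 to 0.033 for Aldoa, -0.072 to 0.017 for Ldha, -0.028 to 0.11 for Pfkfb4, -0.021 to 0.095 for Hif1a, -0.13 to 0.053 for Car12, -0.41 to 0.050 for Adm, -0.11 to 0.045 for P4ha1, -0.12 to 0.021 for P4ha2, -0.035 to 0.14 for Ddit4, -0.12 to 0.025 for Hk1 and -0.13 to 0.029 for Hif1an. No other member changed sign in any setting tried.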
